A study of Mus musculus with 6 samples.

Results

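The chromatin around 8 genes that set whether a cell leaves or stays in the cell cycle was examined, namely the CDK inhibitor genes Cdkn1a, Cdkn1b, Cdkn1c, Cdkn2a and Cdkn2b, and Myc, Ccnd1 and Cdc25a, which drive the cycle forward. The genes were chosen by name from 22350 protein-coding genes of GENCODE vM1. No rule on measured values was used, but earlier results of these data were known when the choice was made. Their accessible regions were those of 3 ATAC-seq peak lists within 100 kb of the annotated 5′ end of each gene, 64 of the 39435 regions of the union of the lists. ATAC-seq uses the transposase Tn5 to insert adapters into accessible DNA, so that a peak marks an open stretch of chromatin.

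The cells were NMuMG, a single epithelial line from the normal mammary gland of the mouse, kept in medium without serum and insulin for 6 h before any treatment. They then received vehicle (BSA in dilute acid or Tris buffer, named differently within the labels) for 2 h, or 5 ng/ml TGFβ1 over 2 h or 12 h, with 2 biological replicates per condition and 6 samples in all. The authors deposited 1 list of reproducible peaks per condition, made from both replicates, so each condition gave 1 value with no spread between replicates and no test between conditions was possible. The study states the depth of each library. In reads left after mapping and filtering, though not in total reads, it was lowest for both libraries of the longer TGFβ treatment. The lists hold no read counts per region and no expression values against which the cell type could be checked. Vehicle cells were collected at 2 h, so an effect of TGFβ at 12 h and one of the longer time without serum cannot be told apart.

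TGFβ is best known in epithelial cells for arresting growth in the G1 phase. In textbook accounts, SMAD proteins, carried to DNA with partners such as FOXO and SP1 factors, raise transcription of Cdkn2b and Cdkn1a, whose products block the cyclin-dependent kinases that phosphorylate RB. At the same time Myc and Cdc25a are turned down, MYC being a repressor of Cdkn2b and Cdkn1a that acts through MIZ1, the product of Zbtb17.

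The start sites of these genes differed in whether a region lay over them, and the 100 bases upstream of 6 of them are printed to show what kind of sequence that was. Capitals mark exact matches on either strand to E2F (TTCCCGCC, TTTCGCGC or TTTGGCGC) or SP1 (GGGGCGGGG) consensus letters, and each run reads 5′ to 3′ on the strand of the gene in NCBIM37 (mm9). Of the upstream windows of 7751 protein-coding genes on the same chromosomes, 1.52% held one of these E2F strings and 9.52% the SP1 string.
Cdc25a, covered in all lists (chr9:109777983-109778082): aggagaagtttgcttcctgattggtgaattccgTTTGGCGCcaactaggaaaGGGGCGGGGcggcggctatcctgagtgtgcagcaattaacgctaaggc
Cdkn2b, covered in all lists (chr4:88956942-88957041): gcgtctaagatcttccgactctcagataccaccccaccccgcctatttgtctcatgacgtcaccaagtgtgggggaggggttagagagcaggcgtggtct
Ccnd1, covered in both TGFβ lists but not in vehicle (chr7:152125775-152125874): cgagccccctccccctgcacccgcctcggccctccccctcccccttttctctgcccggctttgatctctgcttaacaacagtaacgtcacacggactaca
Cdkn1a-003, the most upstream Cdkn1a start, covered in no list (chr17:29227824-29227923): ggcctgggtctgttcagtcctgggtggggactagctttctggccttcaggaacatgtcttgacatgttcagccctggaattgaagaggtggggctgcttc
Cdkn1a-001, the next Cdkn1a start, covered in all lists (chr17:29230617-29230716): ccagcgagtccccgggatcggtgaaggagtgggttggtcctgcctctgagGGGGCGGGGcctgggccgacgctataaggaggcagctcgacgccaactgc
Cdkn2a-001, the Ink4a start, covered in no list (chr4:88928097-88928196): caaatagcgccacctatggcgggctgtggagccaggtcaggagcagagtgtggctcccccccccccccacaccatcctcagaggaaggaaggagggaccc
Both uncovered starts shown were poor in CpG, with an observed over expected CpG ratio of 0.0 upstream of Cdkn1a-003 and 0.184 upstream of Cdkn2a-001. The ratio was 0.857 for Cdc25a, 0.833 for Ccnd1, 0.697 for Cdkn1a-001 and 0.616 for Cdkn2b. Cdkn1c went the other way, since its start was covered in no list at a ratio of 0.872.

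Sequences of regions that entered or left the lists are printed because they are the ones that distinguished the conditions. Capitals here mark AP-1 (TGACTCA or TGAGTCA), SMAD (GTCTAGAC), FOXO (GTAAACA), E-box (CACGTG) and the same E2F letters, and the runs read 5′ to 3′ on the plus strand. Jun and Fos proteins pair up to form AP-1, and the E-box letters are bound by MYC with its partner MAX among others.
Cdkn1b, both TGFβ lists without vehicle (chr6:134854117-134854316): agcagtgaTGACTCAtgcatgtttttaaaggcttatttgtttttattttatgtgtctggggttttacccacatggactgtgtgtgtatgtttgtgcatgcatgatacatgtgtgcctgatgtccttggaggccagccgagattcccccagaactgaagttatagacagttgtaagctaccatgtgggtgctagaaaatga
Cdkn2a and Cdkn2b, 12 h alone (chr4:88900841-88901040): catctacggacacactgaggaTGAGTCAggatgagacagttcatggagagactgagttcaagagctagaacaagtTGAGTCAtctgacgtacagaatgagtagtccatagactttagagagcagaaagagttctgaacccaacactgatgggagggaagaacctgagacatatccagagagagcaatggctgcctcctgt
Cdkn2a and Cdkn2b, both TGFβ lists without vehicle (chr4:88948008-88948207): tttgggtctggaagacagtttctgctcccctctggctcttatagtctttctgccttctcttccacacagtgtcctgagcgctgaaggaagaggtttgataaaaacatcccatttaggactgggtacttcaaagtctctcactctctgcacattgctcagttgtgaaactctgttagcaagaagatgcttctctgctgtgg
Cdkn1b, vehicle alone (chr6:134867208-134867379): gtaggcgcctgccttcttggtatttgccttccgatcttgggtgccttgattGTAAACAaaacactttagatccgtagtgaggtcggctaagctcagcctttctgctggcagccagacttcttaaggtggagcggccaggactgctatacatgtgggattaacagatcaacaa
Myc, vehicle and 2 h (chr15:61823948-61824147): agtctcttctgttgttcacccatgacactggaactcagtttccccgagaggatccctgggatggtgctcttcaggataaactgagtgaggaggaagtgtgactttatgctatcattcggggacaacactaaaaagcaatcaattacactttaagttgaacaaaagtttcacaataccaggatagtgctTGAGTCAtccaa
Cdkn1b, 12 h alone, SMAD match (chr6:134771900-134771947): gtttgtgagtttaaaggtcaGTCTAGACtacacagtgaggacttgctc
Ccnd1, both TGFβ lists without vehicle, E2F match (chr7:152129333-152129380): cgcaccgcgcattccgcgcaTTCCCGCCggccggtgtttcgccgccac
Ccnd1, same region, E-box match (chr7:152129358-152129403): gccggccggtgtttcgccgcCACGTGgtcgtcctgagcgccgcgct
A match says only that these letters stand in the window, and the lack of a match says only that they do not.

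Most regions near the 8 genes were either open in every condition or found only after TGFβ. Of the 64 regions, 27 were in all 3 lists (42.2%, 95% Wilson interval 30.9 to 54.4, with 38.4% over the genome) and 34 were in at least 1 TGFβ list but not in vehicle (53.1%, 41.1 to 64.8, with 57.8% over the genome). Of the vehicle regions, 2 were missing at 12 h and 1 was missing at 2 h but present at 12 h. These intervals and those that follow cover only counting error, and neighbouring regions are neither independent nor replicates.

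These shares lay near those of the genome. Regions of both TGFβ lists without vehicle numbered 15 of 64 (23.4%, 14.8 to 35.1), against a background of 28.5% of all union regions. Regions of the 2 h list alone numbered 12 (18.8%, 11.1 to 29.97), with a background of 12.9%, and those of the 12 h list alone 7 (10.9%, 5.4 to 20.9), with a background of 16.3%. Each of these intervals contained the genome value. The 2 regions in vehicle but not at 12 h stood against a background of 3.41%.

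Read by list, the vehicle list had 32 regions near the 8 genes, the 2 h list 57 and the 12 h list 50. At 2 h, 27 of the 57 had no vehicle region (47.4%, 34.99 to 60.1; background 50.7%), and at 12 h 22 of the 50 (44.0%, 31.2 to 57.7; background 53.9%). Both TGFβ lists share a single vehicle list for comparison, which held 16765 regions in all, while the 2 h list held 32548 and the 12 h list 33079. A region can thus be missing from vehicle because its signal did not reach the cutoff the authors used, and its absence does not measure a rise of signal.

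Regions that vehicle lacked were narrow here as elsewhere. At 2 h their median width was 369 bp (n = 27, from 186 to 1342), while regions shared with vehicle had a median of 750 bp (n = 30, from 181 to 2410). At 12 h the medians were 436 bp (n = 22) and 1017.5 bp (n = 28). Over the whole lists the medians were 423 and 808.5 bp at 2 h and 452 and 854 bp at 12 h.

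**Figure D1:**
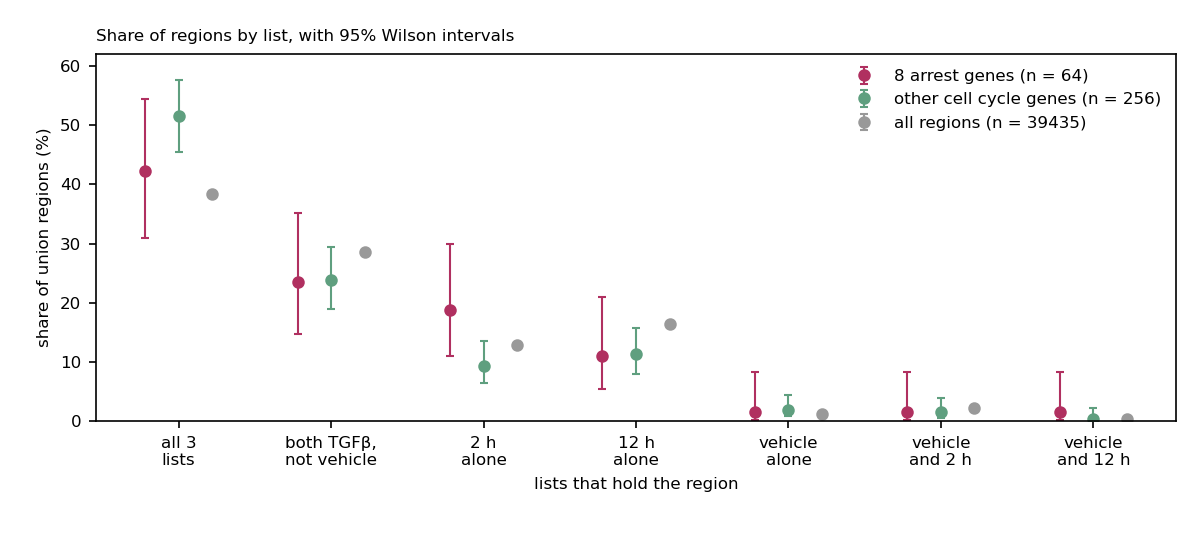
Share of union regions (%, vertical axis) by the lists that hold them, for the 64 regions near the 8 genes, the 256 near 32 other cell cycle genes and all 39435 regions, with 95% Wilson intervals as bars. The 8 genes had 42.2% of their regions in all 3 lists, and the intervals of the 8 genes contained the share of all regions for each pattern.

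Vehicle regions near these genes were mostly wider after TGFβ. Of the vehicle regions with a single partner at 2 h, 24 of 30 were wider (80.0%, 62.7 to 90.5; background 82.7%), with a median gain of 95 bp against 147 bp over the genome. At 12 h, 20 of 26 were wider and 1 was equal (76.9%, 57.95 to 88.97; background 83.6%), with a median gain of 122 bp against 175 bp. A partner also had to overlap no other vehicle region. At 12 h this left out the vehicle regions that were joined at the Myc start, into 2544 bp, and at the inner Cdkn1a start, into 2364 bp. The changes ran from -789 to 1718 bp at 2 h and from -773 to 1659 bp at 12 h, so that single regions moved far more than the median. Among regions with such a partner, the one over the Cdkn2a start widened most in both lists, by 1087 and 1007 bp with gaps left out. At the inner Cdkn1a start, which was left out at 12 h, intervals covered 806 bp in vehicle and 1935 bp at 12 h, a larger gain. A region inside Myc had the lowest values, but with gaps left out its change was -155 bp at 2 h and -139 bp at 12 h, while the lowest was -216 bp at the start of Stk38 at 2 h and -178 bp at that of Mtap4 at 12 h.

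**Figure D2:**
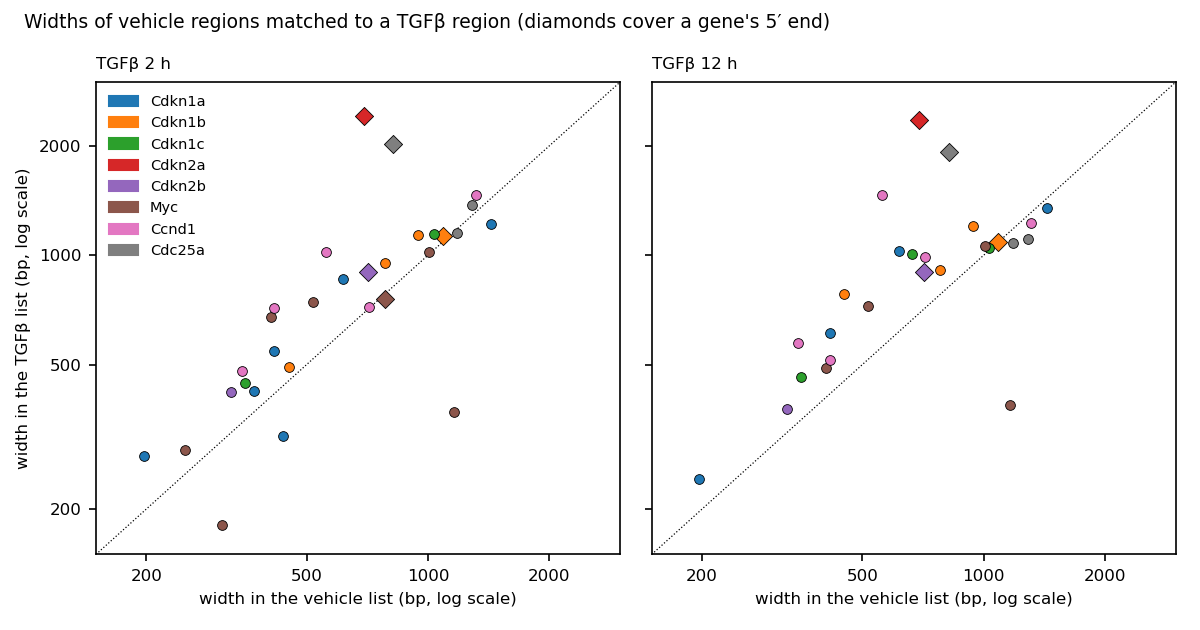
Width of each matched region in the vehicle list (horizontal axis, bp, log scale) against its width in the 2 h list (left) and the 12 h list (right), coloured by the gene whose 5′ end is nearest, with diamonds for regions over a 5′ end and the dotted line where the widths are equal. Of the points, 24 of 30 at 2 h and 20 of 26 at 12 h lie above the line and the region over the Cdkn2a start went from 692 bp to 2410 and 2351 bp.

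Regions were also counted by position. Those within 1000 bp of any annotated start site, of these or neighbouring genes, numbered 23, and 17 of them were in all 3 lists, where the share over the genome was 76.7%. Among the 41 regions farther away, 10 were in every list (22.8% over the genome), 12 were shared by the TGFβ lists but not vehicle (34.7%), 10 were in the 2 h list alone (16.5%) and 7 in the 12 h list alone (21.35%). None of the 7 regions of the 12 h list alone lay at a start site, as 7.21% of such regions did over the genome. Of these 7, 6 were between 50 and 100 kb from the gene, a distance that held 29 of the 64 regions in all.

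The 5′ ends themselves were covered in most of the 8 genes already in vehicle. A region covered the 5′ end of 5 genes in all 3 lists, Cdkn1b, Cdkn2a, Cdkn2b, Myc and Cdc25a (background 35.5% of protein-coding genes). Ccnd1 was covered in both TGFβ lists and not in vehicle, 1 of 8 genes (background 4.72%). Cdkn1a and Cdkn1c were covered in no list at the annotated 5′ end, though Cdkn1a was covered at an inner start.

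**Figure D3:**
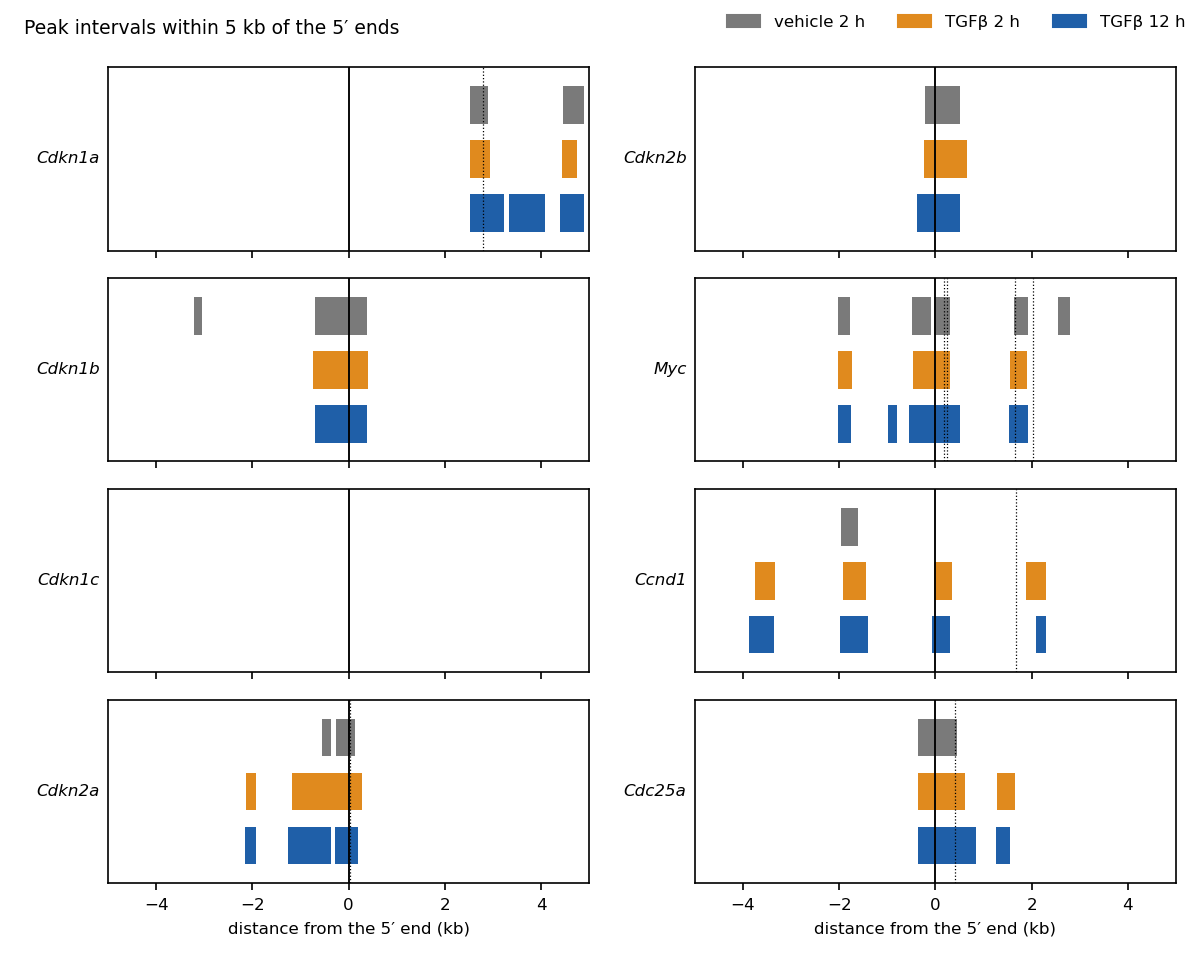
Peak intervals of 150 bp or more, before merging, within 5 kb of the 5′ end of each gene (horizontal axis, kb, in the direction of transcription), with 1 row of bars per list. Solid lines mark the 5′ end and dotted lines other transcript starts; Ccnd1 has no vehicle bar over its 5′ end, and the bars over the Cdkn2a start reach farther upstream after TGFβ.

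Cdkn1a encodes p21, a CDK inhibitor induced by p53 and by TGFβ. Its most upstream transcript, Cdkn1a-003, starts at chr17:29227924 on the plus strand, and the nearest region was 2529 bp away in vehicle, 2519 bp after 2 h and 2526 bp after 12 h. The transcript Cdkn1a-001 starts 2793 bp further in, where its upstream bases printed above hold an SP1 match, and was covered in all 3 lists. A region thus stood at the inner start and not at the outer one in each condition.

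The interval over the inner start was 369 bp wide in vehicle, 423 bp after 2 h and 701 bp after 12 h. A neighbouring interval farther into the gene was 437, 317 and 485 bp wide. At 12 h an added interval of 749 bp, chr17:29231269-29232017, lay between them and was in neither of the other lists. The merged region then ran to 2364 bp in the 12 h list, while it was split into 2 regions in the others.

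Away from the start, Cdkn1a had 2 regions in both TGFβ lists that vehicle lacked. The nearer, chr17:29215819-29216209, lay 11715 bp upstream at the start of the non-coding gene Gm16197 and was 339 bp wide at 2 h and 383 bp at 12 h. The farther, chr17:29305856-29306296, lay in an intron of Cpne5 and held an AP-1 match. Regions of 391 and 1132 bp were in the 2 h list alone, 32592 bp upstream and 31860 bp downstream.

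Cdkn1b encodes p27, the inhibitor of cyclin E and CDK2 complexes that is held at high levels in resting cells. Its promoter hardly moved between lists. The region over its 5′ end at chr6:134870419, chr6:134869690-134870818, measured 1087 bp in vehicle, 1129 bp after 2 h and 1087 bp after 12 h, and had the vehicle score of 1000, the highest value in that list. A region 7617 bp downstream was also in all lists, at 942, 1138 and 1200 bp.

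The Cdkn1b locus had the most union regions of the 8 genes and also the most that vehicle lacked. It held 15 union regions, a number above that of 96.2% of protein-coding genes, with 5 of them in both TGFβ lists without vehicle, 3 at 2 h alone and 2 at 12 h alone. Over the genome these classes made up 28.5%, 12.9% and 16.3% of union regions, together 57.8%. The nearest of the 5, chr6:134853793-134854640, lay 15779 bp upstream, widened from 652 bp at 2 h to 848 bp at 12 h, and held 2 AP-1 matches, 1 of which stands in the printed sequence. It was also still found in both TGFβ lists after these were shortened to the length of the vehicle list.

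The other distal regions of Cdkn1b were mostly smaller. Those of both TGFβ lists measured 221, 330, 544 and 419 bp at 2 h, and 209, 325, 539 and 1445 bp at 12 h. The last of these, chr6:134949366-134950810, was therefore the widest Cdkn1b region at 12 h with gaps included. Its intervals covered 909 bp, less than the regions 7617 bp downstream (1200 bp), over the 5′ end (1087 bp) and at the Crebl2 start (912 bp). The SMAD palindrome printed above stood in a region of 431 bp in the 12 h list alone, 98329 bp upstream. It was the single match in the central 500 bp of the 64 regions (1.56%, with 0.819% over all regions), and a further match stood off the centre of the Mtap4 start region in the Cdc25a window, which was in all lists.

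A single region upstream of Cdkn1b was in the vehicle list alone. It lay at chr6:134867208-134867379, 3040 bp from the 5′ end, and was narrow, at 172 bp, with a score of 585. Its sequence holds a FOXO match, GTAAACA, letters found in 9.38% of the 64 regions and 8.69% of all regions.

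Cdkn1c encodes p57, an imprinted CDK inhibitor of development, and had the fewest regions of the 8 genes. No region covered its 5′ end at chr7:150646955, and the nearest lay 14914 bp away in vehicle and 14865 bp at 12 h. At 2 h a region of 186 bp was nearer, at 9015 bp, and was in that list alone. All 4 regions lay upstream, and none was in both TGFβ lists without vehicle.

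The neighbours of Cdkn1c in the imprinted cluster differed among themselves. The start of Phlda2, chr7:150687943-150688986, was covered by 665 bp in vehicle (score 605) and 1006 bp at 12 h, but was not in the 2 h list. The start of Nap1l4 was covered by 1033, 1142 and 1047 bp in vehicle, at 2 h and at 12 h. Regions of vehicle and 12 h without 2 h were rare, at 0.388% of all union regions. Without this region the list at 2 h covered less length around Cdkn1c than vehicle did, 1774 against 2049 bp.

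Cdkn2a and Cdkn2b lie head to tail with 5′ ends 16384 bp apart, so their windows share most regions, and 11 distinct regions fell in either. Cdkn2a encodes p16 (Ink4a) and, from another start and reading frame, p19 (Arf), which stabilises p53. Cdkn2b encodes p15, the classical TGFβ-induced inhibitor of CDK4 and CDK6. The vehicle list had 3 regions in each window, while the 2 h list had 7 for Cdkn2a and 8 for Cdkn2b, and the 12 h list 9 and 8.

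The region over the upstream Cdkn2a start, that of Arf, showed the largest widening among vehicle regions with a single partner. Its merged width was 692 bp in vehicle, 2410 bp after 2 h and 2351 bp after 12 h, and the intervals in it covered 589, 1676 and 1596 bp. At 2 h the main interval ran from -1184 to 271 bp relative to the 5′ end, where vehicle had an interval from -265 to 129 bp and a small one of 194 bp upstream. Beyond it a new interval, about 2 kb upstream, was 220 bp wide at 2 h and 239 bp wide at 12 h. The Ink4a start, 12461 bp further down at chr4:88928096, stayed uncovered, with the nearest region at least 12190 bp away in each list.

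Over the start of Cdkn2b, chr4:88956941 on the minus strand, the region was already present and widened less, from 711 bp in vehicle (score 949) to 898 bp at 2 h and 901 bp at 12 h. Between the genes, chr4:88947794-88948422 was in both TGFβ lists without vehicle, 7237 bp upstream of Cdkn2a and 8519 bp downstream of the Cdkn2b 5′ end. It was wider at 2 h than at 12 h, at 625 against 306 bp. In the sequence printed from its centre none of the searched motifs matched.

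AP-1 letters stood mainly in the distal regions of this pair. Of the 11 regions 6 had a match in the 500 bp around the centre, and of the 8 that vehicle lacked 5 did. The share over all 64 regions was 28.1%, with 35.6% over the genome. Among regions that vehicle lacked, the genome shares were higher in 2 classes, at 47.3% for both TGFβ lists and 47.6% for 12 h alone. For 2 h alone the genome share was 32.3%. The region 36510 bp downstream of Cdkn2a, chr4:88903594-88904047, held 3 matches and was 369 bp wide at 2 h and 454 bp at 12 h.

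Each of the regions found at 12 h alone in this locus held AP-1 letters. They were chr4:88853739-88854091 with 3 matches, chr4:88900841-88901041 with 2 and chr4:89029862-89030210 with 2, at 353, 201 and 349 bp. The pair in the middle one stands in the printed sequence. The genome share of AP-1 matches in regions of 12 h alone was 47.6%, so such matches were frequent in that class throughout the genome.

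Myc encodes the transcription factor that promotes growth and opposes the CDK inhibitors, and TGFβ is known to repress it. Its promoter, at chr15:61816946 on the plus strand, was open in all lists and changed in shape, mainly at 12 h. In vehicle, 2 intervals of 396 and 319 bp lay at the start with a short gap between them, and with it they spanned 784 bp. At 2 h a single interval of 759 bp and at 12 h one of 1051 bp took their place. A region about 2 kb upstream measured 249, 291 and 285 bp. At 12 h an interval of 196 bp between them joined both into 1 region of 2544 bp, the widest of the group in that list with gaps included. With gaps left out it covered 1532 bp, less than the regions at the inner Cdkn1a start (1935 bp) and the Cdkn2a start (1596 bp).

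Within and behind Myc, some vehicle intervals were missing after TGFβ. A vehicle interval of 241 bp at chr15:61819496-61819736, with a score of 594, was in neither TGFβ list. Because of it the inner region, chr15:61818480-61819736, spanned 1160 bp in vehicle but 371 bp at 2 h and 387 bp at 12 h, although its other interval went from 285 bp to those same widths. The narrowing of the merged region therefore came from the missing interval, and the start of the transcript Myc-002, which lay in the gap between both intervals, was spanned by a region in vehicle only.

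Behind Myc, chr15:61823892-61824203 was 308 bp wide in vehicle (score 609), 181 bp at 2 h and not in the 12 h list. It lay 6946 bp from the 5′ end and held the AP-1 match printed above. No Myc region was in both TGFβ lists without vehicle, and the single addition was a 12 h region of 524 bp, 63406 bp downstream. The region at the start of Pvt1, the non-coding neighbour of Myc, measured 517, 741 and 723 bp, and all 6 regions off the start lay on the downstream side.

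Ccnd1 encodes cyclin D1, the partner of CDK4 and CDK6 that couples growth factors to the cycle, and its start was the one covered only after TGFβ. The region chr7:152125428-152125848 was 386 bp wide at 2 h, from -39 to 346 bp relative to the 5′ end, and 372 bp at 12 h, from -74 to 297 bp. In vehicle the nearest region ended 1615 bp upstream and measured 346 bp, with a score of 802, and it was 479 bp wide at 2 h and 574 bp at 12 h. A flank of the Ccnd1 start was thus accessible in every list.

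Further regions on either side of the Ccnd1 start were also in both TGFβ lists without vehicle. The one 3343 bp upstream, chr7:152129117-152129645, was 413 bp wide at 2 h and 520 bp at 12 h. It held E2F letters and 2 E-boxes, of which the E2F match and the E-box at its centre are printed above. Inside the gene, chr7:152123479-152123887 spanned 409 bp at 2 h but 211 bp at 12 h. These were narrow regions, and after the TGFβ lists were shortened to the length of the vehicle list none of the 3 was in both lists.

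Far upstream, Ccnd1 had regions in every list. The region 24124 bp upstream widened from 559 bp to 1022 bp at 2 h and 1461 bp at 12 h, the widest of the locus in the 12 h list. The region 30875 bp upstream measured 1313, 1469 and 1223 bp. Regions of the 2 h list alone numbered 3. The one of 316 bp lay 43646 bp downstream of the Ccnd1 5′ end and 309 bp from the start of Fgf15. Those of 533 and 306 bp lay 54316 and 85590 bp upstream, each with an AP-1 match.

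Cdc25a encodes the phosphatase that removes inhibitory phosphates from CDK2 and is repressed by TGFβ in mammary cells. The region over its start, chr9:109777713-109779742, measured 821 bp in vehicle (score 1000), 2030 bp at 2 h and 1922 bp at 12 h. The interval over the start went from 821 to 976 and 1210 bp on its downstream side, while its upstream edge stayed within 8 bp. A new interval in the gene (378 and 285 bp in the 2 h and 12 h lists) and the gap before it made up the rest. Without that gap the intervals covered 1354 and 1495 bp, gains of 533 and 674 bp over the vehicle list.

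At the most upstream start of each of the 8 genes, Cdc25a alone had motif matches in the 100 bases before it, an E2F and an SP1 string. Distal regions of both TGFβ lists without vehicle stood 19108 bp downstream, at 348 and 225 bp, and 31463 bp downstream, at 1342 and 753 bp. The latter was also in both shortened TGFβ lists. A region of 598 bp, 12658 bp upstream, was in the 2 h list alone, and one of 465 bp in an intron of Mtap4 in the 12 h list alone.

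The length covered by regions was summed over the window of each gene. Cdkn2a went from 1727 bp in vehicle to 5419 bp at 2 h and 5778 bp at 12 h, ratios of 3.14 and 3.35. Cdkn2b, with mostly the same regions, had ratios of 3.30 and 3.14. Among the 17229 genes with a vehicle region the median ratio was 1.73 at 2 h (quartiles 1.38 and 2.29) and 1.78 at 12 h (1.41 and 2.41), and 89.0% of them at 2 h and 88.6% at 12 h had a lower ratio than Cdkn2a.

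Cdkn1c and Myc stood at the other end, most of all at 2 h. Cdkn1c had ratios of 0.866 at 2 h and 1.23 at 12 h, and Myc 0.9115 and 1.29. A lower ratio at 2 h was found in 1.27% of genes for Cdkn1c and 1.497% for Myc. At 12 h these shares were 13.5% and 17.2%. With gaps inside merged regions left out, Myc had 1.08 at 2 h and Cdkn1c remained at 0.866, so the value below 1 for Myc at 2 h came from the gap. In that count 5.885% of genes had a lower ratio than Myc at 2 h.

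The other genes lay within the middle of the genome or a little above. The ratios were 1.68 and 1.85 for Cdkn1a, 1.94 and 2.47 for Cdkn1b, 2.02 and 1.75 for Ccnd1, and 2.08 and 1.69 for Cdc25a. With gaps left out Cdc25a had 1.75 and 1.56, where the medians over the genome were 1.71 and 1.77. Among the CDK inhibitors the values at 2 h thus ran from the low end (Cdkn1c) to the high end (Cdkn2a and Cdkn2b) of the genome, while Cdkn1c was less extreme at 12 h.

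**Figure D4:**
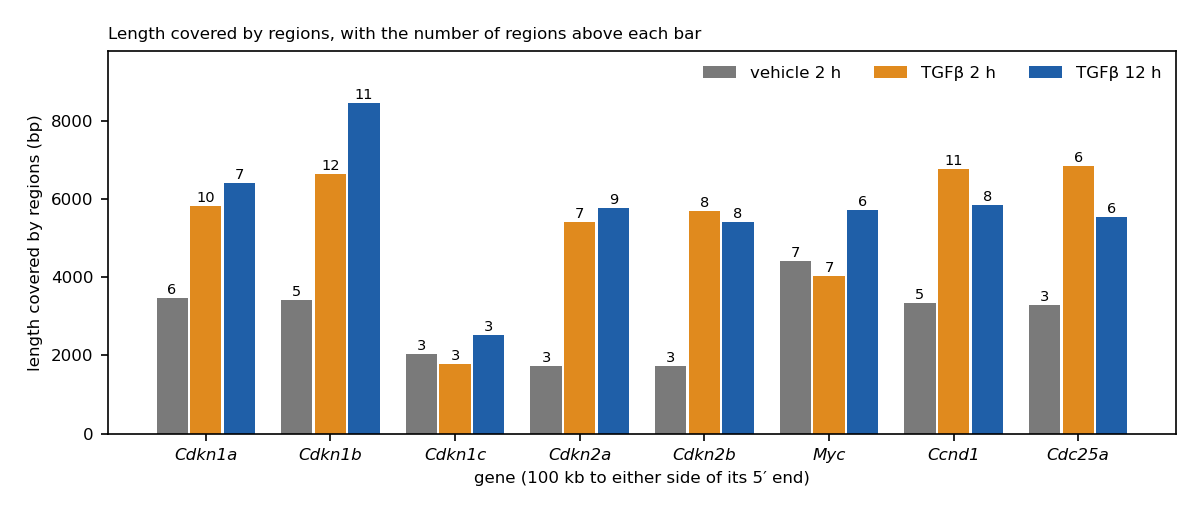
Length covered by regions (bp, vertical axis, from 0) within 100 kb of the 5′ end of each gene in the 3 lists, with the number of regions above each bar. Cdkn2a went from 1727 bp in vehicle to 5419 and 5778 bp after TGFβ, while Cdkn1c and Myc covered less at 2 h than in vehicle. Lengths include gaps inside merged regions, without which Myc did not cover less at 2 h.

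To place the 8 genes among their pathway, 32 other cell cycle genes were counted in the same way. They had 256 union regions, of which 61 were in both TGFβ lists without vehicle (23.8%), 24 in the 2 h list alone (9.38%) and 29 in the 12 h list alone (11.3%). Without a vehicle region were 38.8% of their 2 h regions and 40.4% of their 12 h regions. Their 5′ ends were covered in 23 of 32 genes in vehicle, 25 at 2 h and 27 at 12 h. Over all protein-coding genes the shares were 35.9%, 41.4% and 41.6%.

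Those 5′ ends covered after TGFβ but not in vehicle belonged to 4 of these genes. Zbtb17, which encodes the MYC partner MIZ1, had a region of 921 bp at 2 h and 967 bp at 12 h. Trp53, which encodes p53, had 1478 and 2793 bp. E2f3, an E2F factor, and Fbxw7, the ubiquitin ligase subunit that targets MYC and cyclin E, were covered at 12 h alone, by 2566 and 1631 bp. These widths include gaps, so a start can be covered where a region widened or bridged a gap. Near Trp53 no union region was in both TGFβ lists without vehicle, so vehicle had a region elsewhere in the union region at its start. Near Fbxw7 no union region was in the 12 h list alone, so another list also held part of that one. The 5′ ends of Cdkn2d, Ccnd2, Cdk6, E2f2 and Sp1 were covered in no list.

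Motif matches were counted in all 64 regions beside all regions of the genome. In the 500 bp around the centre E2F matches were in 4 regions (6.25%, with 3.10% of all regions), E-boxes in 5 (7.81%, with 8.25%), FOXO in 6 (9.38%, with 8.69%) and SP1 in 7 (10.9%, with 8.30%). AP-1 matches were in 6 of the 27 regions of all lists (24.4% of such regions over the genome) and in 4 of the 15 of both TGFβ lists without vehicle (47.3%). They were in 4 of the 12 of 2 h alone (32.3%) and in 3 of the 7 of 12 h alone (47.6%). The median GC content was 57.5% in regions of all lists and 44.3% in those of 12 h alone, with 56.3% and 47.0% over the genome.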

How the data were processed

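ATAC-seq peaks were analysed for 6 samples, 2 biological replicates for each of 3 conditions. Per the labels and the study's methods, the authors processed reads with the ENCODE ATAC-seq pipeline on mm9, called peaks with MACS2 2.1.2 and kept those reproducible between replicates by IDR, giving 1 BED list per condition. The deposited vehicle list also has a score column from the authors, whose scale is not stated, while the same column of the TGFβ lists only numbers their lines. Lists shared by replicates give no replicate error, and a peak under the authors' threshold is missing whatever its signal.

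From the deposited starts and ends, distinct intervals of 150 bp or more were merged within each list where gaps were under 1000 bp, and again over the lists to give union regions. A region belonged to a list where at least 1 bp overlapped, and widths of merged regions include gaps. A gene received all regions whose nearest base lay at most 100 kb from its 5′ end (GENCODE vM1, NCBIM37), so that neighbouring genes can share regions. Background percentages are the same counts over all regions or genes. Exact motif matches on both strands were counted in the 500 bp around region centres and in 100 bases upstream of 5′ ends, and all sequences were read from NCBIM37.

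The regions named are those at the 5′ end of each gene, the nearest in both TGFβ lists without vehicle, at 2 h alone and at 12 h alone, those lost from vehicle, and the widest at 12 h. Others were named after their values were seen. The genes and lists were chosen with earlier results of these data known. Python 3.11.15, numpy 2.4.6, scipy 1.17.1 and matplotlib 3.10.9 were used, and on simulated intervals and sequences 0 of 8200 interval and 0 of 300 motif comparisons came out wrong. In all, 12 alternative settings were tried, 1 of them chosen after seeing the data.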

Additional observations from a re-analysis of the deposited data

How the results depend on the processing

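No paired analysis was possible because each condition has 1 list made from both replicates, and no replicate could be left out for the same reason. When the TGFβ lists were cut down to the length of the vehicle list by keeping their widest intervals, 39 union regions were left near the 8 genes in place of 64. Of these, 5.13% were in both TGFβ lists without vehicle (12.6% over the genome), while the share lacking a vehicle region was 23.1% at 2 h (30.05% over the genome) and 15.4% at 12 h (33.2%). In that setting 5′ ends were covered in 5, 5 and 4 of the 8 genes in vehicle, at 2 h and at 12 h, and Ccnd1 was no longer covered after TGFβ. A window of 50 kb held 35 union regions and one of 200 kb held 129. In the central 200 bp in place of 500 bp, E2F matches were in 1.56% and SP1 matches in 3.12% of the 64 regions (1.34% and 3.67% of all regions). Leaving intervals unmerged, which was chosen after seeing the data, gave 75 union regions and 22.7% in both TGFβ lists without vehicle. Of 96 values recomputed under the alternatives, 88 moved by less than their counting interval or by less than 1.5 times. The lists hold no read counts per region, so no detection limit can be given.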
